A study of Mus musculus with 6 samples.

Results

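Kupffer cell marker genes were followed in hepatocyte libraries as a measure of resident liver macrophage RNA. The set holds 10 genes, C1qa, C1qb, C1qc, Clec4f, Vsig4, Cd5l, Marco, Timd4, Adgre1 and Csf1r, of 49315 in the count table, matched by the gene name that the table gives. The genes are known to be expressed in Kupffer cells. RNA was sequenced from 3 miR-206 libraries and 3 control libraries of sorted hepatocytes of male C57BL/6J mice. By the design text, 3 mice aged 8 weeks received a hydrodynamic injection, in which a large volume is forced into a vein, of 20 µg of a plasmid carrying miR-206 and GFP behind the Ttr promoter and 0.8 µg of a Sleeping Beauty transposase plasmid. Hepatocytes were perfused out 4 weeks later and sorted by flow cytometry, with GFP-positive cells forming the miR-206 group and GFP-negative cells the control group. For the wild-type control cells the sample labels instead give empty vector as treatment, and the counts do not settle which is meant. All groups share the strain, sex, perfusion and sort. The Ttr promoter is active in hepatocytes, and no marker besides GFP is named for the sort. The gate, GFP and miR-206 therefore cannot be told apart in these groups. Nothing in the labels says which library came from which mouse, so p-values measure the spread between libraries.

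Kupffer cells are the macrophages that live in the liver sinusoids. They take up particles, bacteria and dying cells from the blood, bind complement-coated targets and depend on signalling through the CSF1 receptor. Their identity genes are under the control of macrophage transcription factors such as PU.1, the product of Spi1. Hepatocytes are not known to express the 10 genes, which makes them useful as a sign of macrophage RNA in a hepatocyte preparation. In bulk libraries, fewer cells of a type and less RNA per cell cannot be told apart.

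The sequences below show what the study delivered and what lies at the start of some of the genes. The mature mouse microRNA, from RefSeq (GRCm38.p6, chr1:20679055-20679076, plus strand), is given with its seed (bases 2 to 8) in capitals.
mmu-miR-206-3p: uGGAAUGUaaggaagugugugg
The seed match, ACATTCC, was looked for on the transcript strand in the longest 3′ UTR annotated by GENCODE M21 for each gene. It was found in 0 of the 10 Kupffer genes and in 2250 of 21130 protein-coding genes (10.6%), and this says only that these letters are not in those windows. RefSeq promoter windows, 250 bases before to 50 after the gene start, matched 7 of the 10 genes. Shown here are C1qb, Clec4f and Vsig4, which differed strongly between the groups, and Marco, which differed less. Capitals mark GAGGAA or its reverse complement TTCCTC, the core letters bound by PU.1.
C1qb, chr4:136886151-136886450, minus strand: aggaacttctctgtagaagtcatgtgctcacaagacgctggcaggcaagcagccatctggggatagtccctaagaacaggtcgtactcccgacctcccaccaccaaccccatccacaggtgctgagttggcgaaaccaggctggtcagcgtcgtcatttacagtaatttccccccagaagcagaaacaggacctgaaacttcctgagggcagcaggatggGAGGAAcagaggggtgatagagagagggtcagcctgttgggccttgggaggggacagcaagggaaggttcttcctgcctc
Clec4f, chr6:83656067-83656366, minus strand: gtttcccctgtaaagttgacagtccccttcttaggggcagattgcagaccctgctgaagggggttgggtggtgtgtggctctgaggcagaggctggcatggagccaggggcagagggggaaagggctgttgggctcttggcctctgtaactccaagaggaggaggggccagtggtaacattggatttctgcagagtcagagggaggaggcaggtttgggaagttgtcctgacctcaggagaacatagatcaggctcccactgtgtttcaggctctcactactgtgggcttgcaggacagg
Vsig4, chrX:96293389-96293688, minus strand: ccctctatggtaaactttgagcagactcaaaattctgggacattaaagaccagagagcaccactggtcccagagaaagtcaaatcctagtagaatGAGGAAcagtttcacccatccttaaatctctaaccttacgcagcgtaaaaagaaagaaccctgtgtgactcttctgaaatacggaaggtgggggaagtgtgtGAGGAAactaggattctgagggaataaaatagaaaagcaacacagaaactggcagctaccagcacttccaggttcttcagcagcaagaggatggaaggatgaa
Marco, chr1:120504975-120505274, minus strand: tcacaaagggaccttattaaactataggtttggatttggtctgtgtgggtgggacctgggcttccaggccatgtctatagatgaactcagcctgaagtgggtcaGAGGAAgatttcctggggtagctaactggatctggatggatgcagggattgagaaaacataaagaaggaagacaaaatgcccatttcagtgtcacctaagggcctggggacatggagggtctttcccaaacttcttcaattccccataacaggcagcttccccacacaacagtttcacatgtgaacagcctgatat
Of the 7 windows, 5 held GAGGAA on either strand, against 28.3% of all 32851 windows of this length. The MAF core TGCTGA stood in 5 of 7 (19.5% of all windows), the nuclear receptor core AGGTCA in 3 of 7 (16.3%) and TATAAA in 0 of 7 (13.6%). The motifs were searched on both strands, and no match overlapped another in the 7 windows. The windows without GAGGAA were those of Clec4f, which fell by 5.52 on the log2 scale in miR-206 cells, and Timd4, which fell by 1.37.

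The libraries held 4157947 to 5724329 counts in the miR-206 group and 8966590 to 15244017 in the control group. Control replicate 1 stood apart from the other controls: it correlated with them at 0.854 and 0.856 on the log2 CPM scale (CPM, each count scaled to its library's total), against 0.965 between control replicates 2 and 3. Mitochondrially encoded genes took 11.2% to 63.8% of the counts in miR-206 libraries and 9.16% to 36.0% in control libraries. As a check of the labelled cell type, Alb, the albumin gene of hepatocytes, had 145929, 34286 and 88921 counts in the miR-206 libraries and 221413, 729241 and 667994 in the control libraries. Genes for olfactory and vomeronasal receptors, not known to be active in liver, had a density per exonic kb of 5.5, 3.73 and 5.45 counts in the miR-206 libraries and 3.08, 1.45 and 1.27 counts in the control libraries. This density, taken as a background, bears on every count below. With the edgeR quasi-likelihood test and TMM scaling (adjusted p under 0.05), 7213 of 24382 genes were lower and 6289 higher in miR-206 cells, around a median log2 fold change of 0.45. With upper-quartile factors 4812 were lower and 10629 higher. Scaling by library size alone gave 3774 lower and 11642 higher genes, and scaling on hepatocyte genes gave 786 lower and 13305 higher.

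All 10 genes were lower in miR-206 than in control cells with TMM scaling, and Marco and Timd4 turned to positive values, without passing the test, when libraries were scaled on hepatocyte genes. Their counts summed to 344, 307 and 362 in the miR-206 libraries and 2610, 15009 and 13103 in the control libraries, or 62.2 to 82.7 CPM against 291 to 985 CPM. The sum of every miR-206 library lay below that of every control. Each gene passed the edgeR test as lower, 10 of 10, where 29.6% of all genes tested were called lower. Their median log2 fold change was -4.81, against 0.45 over all genes. Every gene passed the filter on low values, and each also lay above its minimum of 1.36 CPM in the miR-206 libraries, where the lowest value was 2.02 CPM. Of the 10 genes, 7 had no overlap between groups in CPM, with each miR-206 library below each control, and 16.8% of tested genes showed that order. Without control replicate 1 the number called was again 10, and the median was -5.31.

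**Figure D1:**
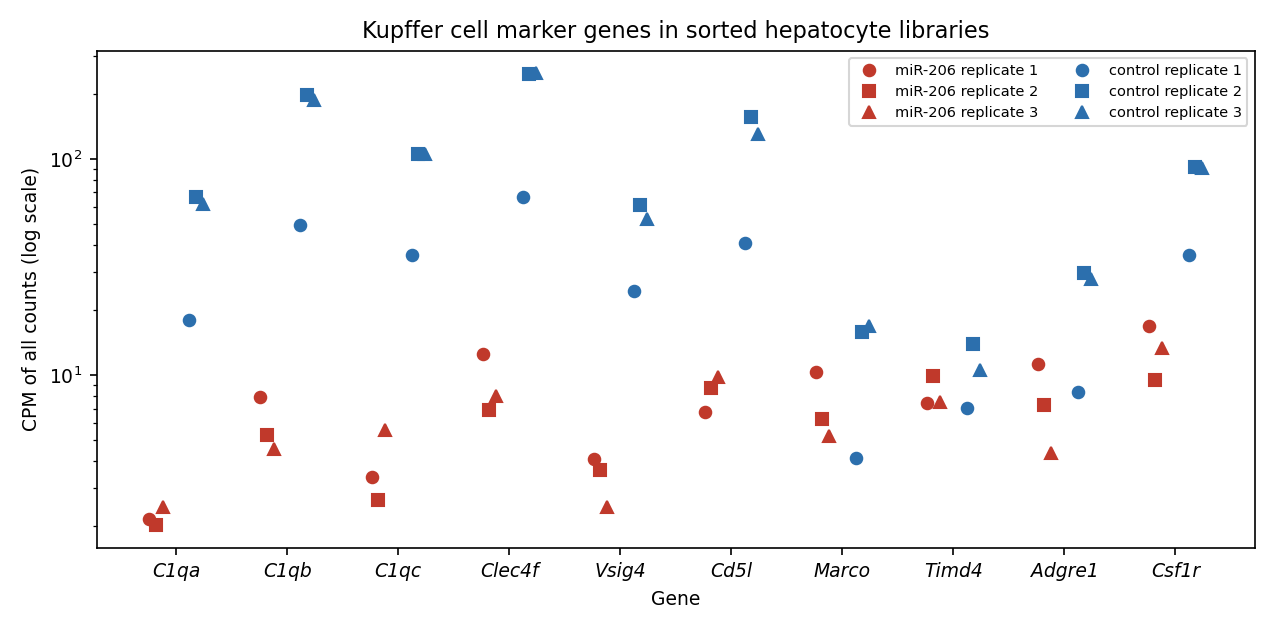
CPM of each gene (log axis) in the 3 miR-206 libraries (red, left) and the 3 control libraries (blue, right), 1 point per library with the replicate given by the marker. The C1q chains, Clec4f, Vsig4, Cd5l and Csf1r do not overlap between groups. Control replicate 1 lies below the miR-206 libraries for Marco and Timd4 and among them for Adgre1.

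The C1q chains C1qa, C1qb and C1qc form the recognition part of the first complement component, which binds antibody complexes and other targets and starts the classical pathway. Their genes lie side by side on the minus strand of chromosome 4 (GRCm38, GENCODE M21), C1qb at 136880129 to 136886187, C1qc at 136889804 to 136893065 and C1qa at 136895917 to 136898803. C1qa was counted 9, 10 and 14 times in the miR-206 libraries and 161, 1014 and 868 times in the control libraries. It averaged 2.21 ± 0.214 CPM in miR-206 cells and 48.7 ± 26.8 CPM in control cells (SD, n = 3 each), and fell by 5.55 on the log2 scale (SE 0.667, edgeR adjusted p = 0.000316). C1qb was counted 33, 26 and 26 times in the miR-206 libraries and 445, 2999 and 2630 times in the control libraries. The highest miR-206 library of either gene lay far below control replicate 1, the lowest control. C1qb averaged 5.91 ± 1.79 CPM in miR-206 cells and 144 ± 82.2 CPM in control cells, and its fold change of -5.76 (SE 0.716, edgeR adjusted p = 0.000326) was the largest of the 10. C1qc was counted 14, 13 and 32 times in the miR-206 libraries and 324, 1618 and 1477 times in the control libraries. It fell by 5.49 (SE 0.667, edgeR adjusted p = 0.00032), so the 3 chains differed by close to the same amount, within 1 SE of each other.

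Per exonic length, C1qb was the most abundant chain. Its level per kb was 2.64, 2.83 and 2.90 times that of C1qa in control replicates 1, 2 and 3, although control replicate 1 held far fewer C1q counts than the other controls. In the miR-206 libraries the same ratio was 3.50, 2.49 and 1.78, on 9 to 14 counts of C1qa. The ratio of C1qc to C1qa per kb was 0.838, 0.700 and 1.23 in miR-206 libraries and 1.08, 0.859 and 0.916 in control libraries. The ratios lay close together in the control libraries and further apart in the miR-206 libraries.

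Clec4f, a galactose-binding C-type lectin that in the mouse marks Kupffer cells (chromosome 6, 83644542 to 83656187, minus strand), gave the most counts of the 10 genes in every control library. It was counted 52, 34 and 46 times in the miR-206 libraries and 597, 3747 and 3497 times in the control libraries. All miR-206 libraries lay below all controls. It averaged 9.14 ± 2.97 CPM in miR-206 cells and 187 ± 104 CPM in control cells and fell by 5.52 (SE 0.701, edgeR adjusted p = 0.000335). Cd5l, a scavenger-type protein that tissue macrophages secrete (chromosome 3, 87357881 to 87371073, plus strand), was counted 28, 43 and 56 times in the miR-206 libraries and 365, 2394 and 1842 times in the control libraries. Again no miR-206 library reached a control. It averaged 8.41 ± 1.55 CPM in miR-206 cells and 110 ± 61.0 CPM in control cells, and fell by 4.76 (SE 0.689, edgeR adjusted p = 0.000511).

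The uptake receptors differed among themselves. Vsig4, a receptor for complement C3 fragments on coated bacteria (chromosome X, 96247203 to 96293438, minus strand), was counted 17, 18 and 14 times in the miR-206 libraries and 219, 935 and 741 times in the control libraries. It fell by 4.86 (SE 0.553, edgeR adjusted p = 0.000281), with 3.39 ± 0.85 CPM in miR-206 cells and 46.1 ± 19.3 CPM in control cells. Marco, a class A scavenger receptor for bacteria and particles (chromosome 1, 120474538 to 120505024, minus strand), was counted 43, 31 and 30 times in the miR-206 libraries and 37, 241 and 236 times in the control libraries. On the CPM scale the groups overlapped, because control replicate 1 (4.13 CPM) lay below all 3 miR-206 libraries (5.24 to 10.3 CPM). The fold change of Marco was -1.92 (SE 0.551, edgeR adjusted p = 0.0146). Timd4, a phosphatidylserine receptor for dying cells that marks long-lived resident Kupffer cells (chromosome 11, 46810800 to 46844332, plus strand), was counted 31, 49 and 43 times in the miR-206 libraries and 63, 214 and 149 times in the control libraries. Its CPM also overlapped between groups, at 7.46 to 9.92 in miR-206 libraries and 7.03 to 14.0 in control libraries. Timd4 had the smallest fold change, -1.37 (SE 0.441, edgeR adjusted p = 0.0235).

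The calls of Marco and Timd4 depended on the scale. Marco gave -0.74 (SE 0.532, edgeR adjusted p = 0.225) with library size alone and 0.50 (SE 0.759, adjusted p = 0.58) with libraries scaled on hepatocyte genes. Timd4 gave -0.33 (SE 0.445, edgeR adjusted p = 0.516) and 1.04 (SE 0.752, adjusted p = 0.229) on the same scales. Scaling on hepatocyte genes moved the median of all genes to 2.30, and relative to it Marco and Timd4 lay at -1.80 and -1.26. With library size alone the median was 1.46, and they lay at -2.21 and -1.80. Timd4 also missed the threshold without miR-206 replicate 1 (edgeR adjusted p = 0.0637), miR-206 replicate 3 (0.0551), control replicate 2 (0.0858) or control replicate 3 (0.0511). Over all 17 alternatives its adjusted p ran up to 0.516.

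Adgre1 encodes F4/80, the adhesion G-protein-coupled receptor used to stain mouse macrophages (chromosome 17, 57358691 to 57483527, plus strand). It was counted 47, 36 and 25 times in the miR-206 libraries and 75, 452 and 390 times in the control libraries. Control replicate 1, at 8.36 CPM, lay within the 4.37 to 11.3 CPM of the miR-206 libraries. Adgre1 fell by 2.69 (SE 0.559, edgeR adjusted p = 0.00309), and its value was -0.26 (SE 0.707, edgeR adjusted p = 0.762) with libraries scaled on hepatocyte genes. Csf1r, the receptor for the growth factors CSF1 and IL-34 (chromosome 18, 61100598 to 61132149, plus strand), was counted 70, 47 and 76 times in the miR-206 libraries and 324, 1395 and 1273 times in the control libraries. The groups did not overlap, with 13.2 ± 3.66 CPM in miR-206 cells and 72.7 ± 31.7 CPM in control cells. Csf1r fell by 3.60 (SE 0.527, edgeR adjusted p = 0.000539), or by 1.29 (SE 0.59, edgeR adjusted p = 0.0593) with libraries scaled on hepatocyte genes. Exons of Hmgxb3 overlap Csf1r on the opposite strand and the strand setting of the counting is not given, so reads could be shared. Hmgxb3 was counted 76, 63 and 80 times in the miR-206 libraries and 46, 81 and 75 times in the control libraries. The other 9 genes overlap no annotated gene.

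Per exonic length, which allows levels to be compared between genes, the control libraries held a steep order. C1qb led with 133 ± 75.6 CPM per kb, followed by Clec4f at 75.7 ± 42.2, Cd5l at 53.8 ± 30, C1qa at 46.8 ± 25.7, C1qc at 42.7 ± 20.8 and Vsig4 at 31.1 ± 13 CPM per kb (SD, n = 3). Csf1r (12.6 ± 5.49), Adgre1 (6.77 ± 3.64), Marco (6.36 ± 3.66) and Timd4 (4.86 ± 1.61 CPM per kb) formed the lower end. Neighbours in this order differed by less than the larger of their SDs, except Vsig4 against Csf1r and Csf1r against Adgre1. In the miR-206 libraries the same 10 genes lay between 2 ± 0.798 (C1qc) and 5.44 ± 1.64 CPM per kb (C1qb). Timd4 at 3.82 ± 0.648 and Marco at 3.79 ± 1.4 CPM per kb were there among the upper genes, and C1qa at 2.13 ± 0.206 CPM per kb was near the bottom. The means of the 10 genes per length spanned a narrower range in the miR-206 than in the control libraries.

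**Figure D2:**
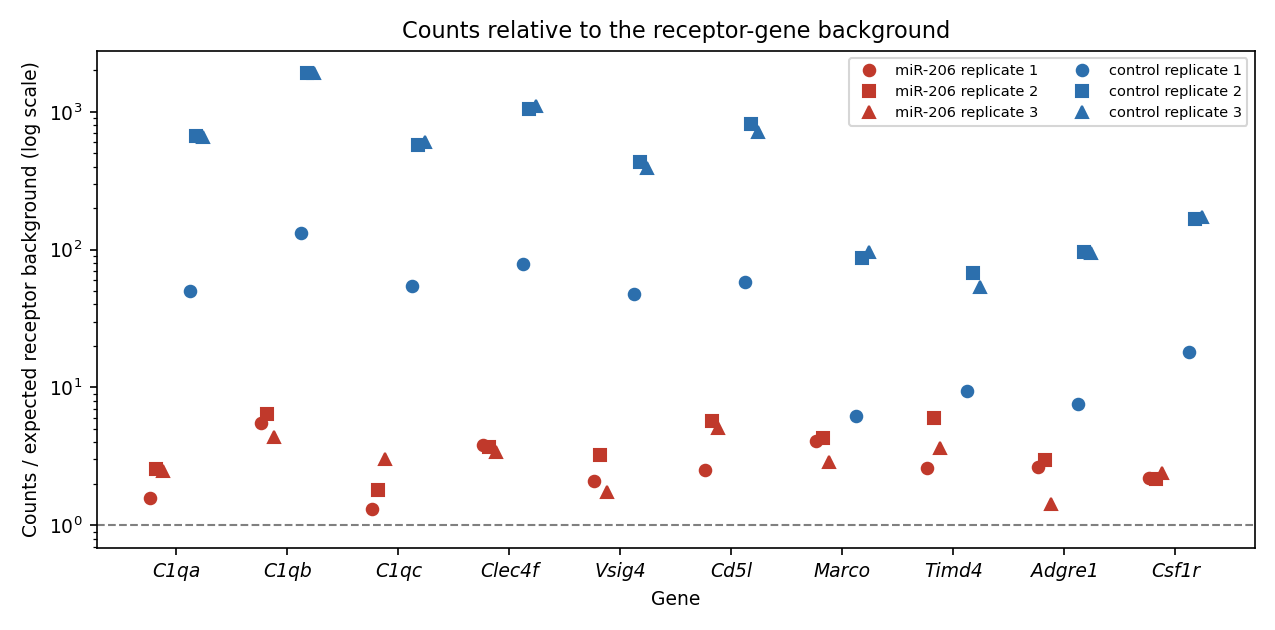
Count of each gene divided by the count that the receptor-gene background predicts for its exonic length (log axis; dashed line at 1), 1 point per library, miR-206 in red on the left and control in blue on the right. All miR-206 points lie between 1.32 and 6.41, and the control points range from 6.24 to 1900.

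In the miR-206 libraries the genes stood a few times above the receptor background. The 30 values, 10 genes in 3 libraries, ran from 1.32 times for C1qc in replicate 1 to 6.41 times for C1qb in replicate 2, and 5 were under 2 times. In control replicates 2 and 3 all 20 values were over 30 times the background, up to 1900 times for C1qb. Control replicate 1 lay between, at 47.9 to 133 times for the C1q chains, Clec4f, Vsig4 and Cd5l, 18.2 times for Csf1r and 6.24 to 9.41 times for Marco, Timd4 and Adgre1. Summed over the 10 genes, the background predicted 127, 86.4 and 126 of the 344, 307 and 362 counts in the miR-206 libraries. It predicted 71.3, 33.6 and 29.5 of the 2610, 15009 and 13103 counts in the control libraries. When this background was subtracted before scaling, 8 of the 10 genes were called lower (29.2% of all genes tested that way), and Marco (-1.24, SE 0.597, edgeR adjusted p = 0.106) and Timd4 (-0.69, SE 0.531, adjusted p = 0.281) were not. The other 8 had fold changes of -2.39 (Adgre1) to -5.41 (C1qa). With control replicate 1 also left out all 10 were called lower. With the background subtracted and libraries scaled on hepatocyte genes, 7 were called lower, against 11.7% of all genes. The lowest genes keep few counts after subtraction, and no SE here includes how uncertain the background itself is.

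The make-up of the summed counts also differed between the groups. In the miR-206 libraries Clec4f made up 15.1% (11.7 to 19.3), 11.1% (8.03 to 15.1) and 12.7% (9.66 to 16.5) of the 10-gene sum, with 95% Wilson intervals in brackets. Its control shares were 22.9% (21.3 to 24.5), 25% (24.3 to 25.7) and 26.7% (25.9 to 27.5). Its share of the genes' exonic length is 10.7%, and the miR-206 intervals hold that share in replicates 2 and 3. Not every gene held its length share. The C1qb intervals lay above its 4.7% in miR-206 replicates 1 (6.91 to 13.2), 2 (5.84 to 12.1) and 3 (4.95 to 10.3). Those of Cd5l lay above its 8.79% in replicates 2 (10.6 to 18.3) and 3 (12.1 to 19.6) and held it in replicate 1 (5.69 to 11.5). Csf1r, which has the most exonic sequence (24.9% of the length), made up 20.3%, 15.3% and 21% in the miR-206 libraries and 12.4%, 9.29% and 9.72% in the control libraries. Marco and Timd4 together moved likewise: Marco made up 8.29% to 12.5% in miR-206 libraries and 1.42% to 1.80% in control libraries, and Timd4 9.01% to 16% and 1.14% to 2.41%. Control replicate 1 kept only part of the make-up of the other controls. C1qa (6.17%, against 6.76% and 6.62%) and Adgre1 (2.87%, against 3.01% and 2.98%) stayed close. C1qb was lower at 17.0% (15.7 to 18.5), against 20.0% and 20.1%. Csf1r was higher at 12.4% (11.2 to 13.7), against 9.29% and 9.72%, and so was Vsig4 at 8.39% (7.39 to 9.52), against 6.23% and 5.66%. Only counting error enters these intervals, and without molecular identifiers the reads may be copies of 1 molecule.

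**Figure D3:**
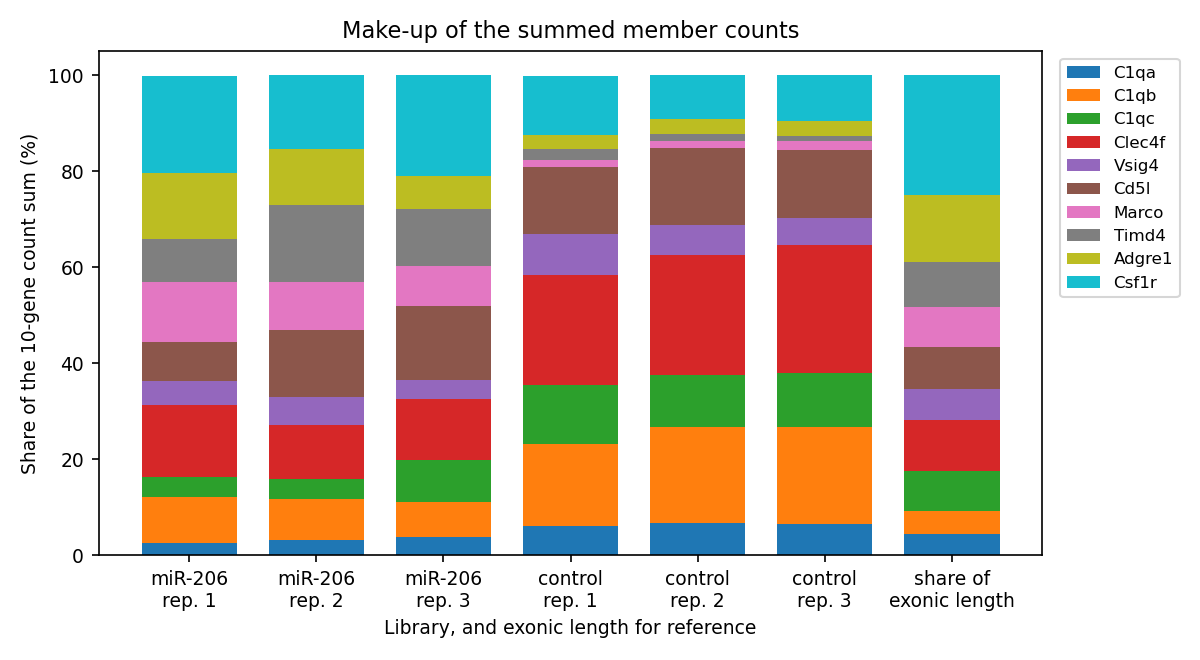
Share of each gene in the summed counts of the 10 genes (percent) in each miR-206 library, then each control library, with each gene's share of the summed exonic length as the last bar. The C1q chains and Clec4f take more of the control bars than of the miR-206 bars, and Csf1r, Adgre1, Timd4 and Marco less.

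Relative to the summed counts of a hepatocyte list the sum of the genes was also lower. Per 10000 counts of 25 hepatocyte genes, the 10 genes had 6.35, 21.8 and 10.6 counts in the miR-206 libraries and 37.0, 64.3 and 62.1 in the control libraries. With the receptor background taken off the values were 4, 15.7 and 6.91 in miR-206 libraries and 36.0, 64.1 and 62.0 in control libraries. The groups did not overlap on either measure. Both measures rest on the summed list, in which Alb gave the most counts and fell by 2.31 with TMM scaling. Cps1 of the same list fell by 5.29, with 208, 397 and 425 counts in the miR-206 libraries and 3838, 28476 and 22656 in the control libraries. The result therefore holds for the summed list and not for each hepatocyte gene. With libraries scaled on these hepatocyte genes, 6 of the 10 genes were called lower by edgeR, where 3.22% of all genes were. These were the C1q chains and Clec4f, Vsig4 and Cd5l, with fold changes of -3.35 (C1qb) to -2.25 (Cd5l). These 6 were called lower under all 17 alternatives as well as with TMM scaling.

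**Figure D4:**
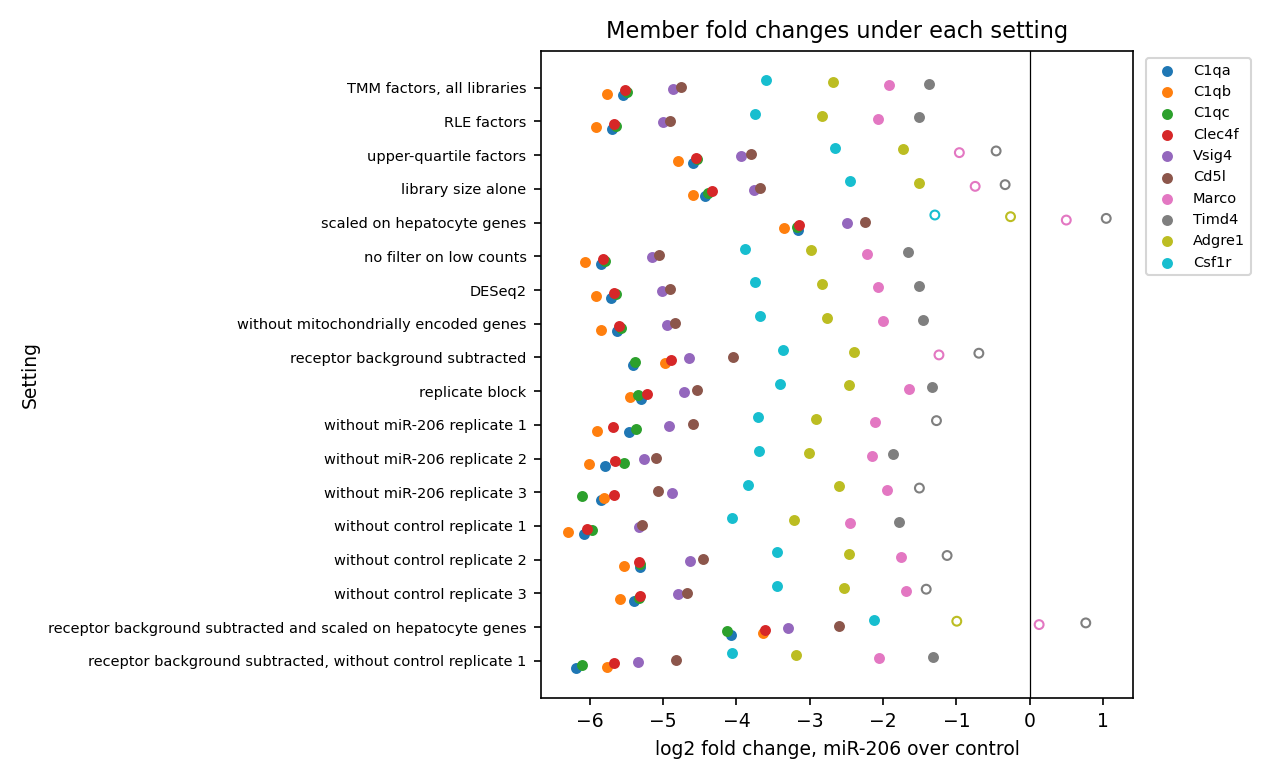
Log2 fold change of each gene, miR-206 over control, under TMM scaling with all libraries (top row) and 17 other settings, filled where the adjusted p was under 0.05. The C1q chains, Clec4f, Vsig4 and Cd5l stay filled and at -2.25 or lower in every row, and Marco and Timd4 cross 0 in both rows scaled on hepatocyte genes.

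Other genes linked to Kupffer cells were mostly lower too. Of 16 such genes, all tested, 15 were called lower and none higher (median log2 fold change -2.66), where 29.6% of all genes were lower. Fcna, a ficolin that binds sugars on microbes, fell by 4.47 (SE 0.563, edgeR adjusted p = 0.000332) to 8.08 ± 2.24 CPM in miR-206 cells, against 81.3 ± 36.7 CPM in control cells. Cfp, the complement regulator properdin, had 32, 8 and 16 counts in the miR-206 libraries and 243, 1165 and 987 in the control libraries (-5.09, SE 0.637, edgeR adjusted p = 0.000329). Hmox1, which breaks down haem, fell by 3.92 (SE 0.472, edgeR adjusted p = 0.000316). The exception was Spic, a transcription factor of iron-recycling macrophages, with 81, 52 and 86 counts in the miR-206 libraries and 55, 85 and 84 in the control libraries (0.27, SE 0.307, edgeR adjusted p = 0.447). With libraries scaled on hepatocyte genes 2 of the 16 were called lower and 1 higher, where 3.22% of all genes were lower and 54.6% higher. With library size alone 8 were lower.

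Genes of the wider myeloid lineage were lower in 16 of 18 cases and higher in none, with a median of -3.41. Tyrobp, an adaptor of immune receptors, fell by 4.73 (SE 0.48, edgeR adjusted p = 0.000271), Coro1a, a regulator of leukocyte actin, by 3.89 (SE 0.413, edgeR adjusted p = 0.000274) and Cd68, a lysosomal protein of macrophages, by 3.60 (SE 0.392, edgeR adjusted p = 0.000281). Ptprc, which encodes the leukocyte antigen CD45 (-0.13, edgeR adjusted p = 0.74), and Itgam, an integrin of monocytes and neutrophils (0.20, adjusted p = 0.773), did not pass. Ptprc and Itgam lay at 2.89 and 1.13 times the receptor background in miR-206 libraries, and at 9.86 and 2.98 times in control libraries. With libraries scaled on hepatocyte genes 8 of the 18 were called lower and 1 higher. Monocyte genes were called lower in 4 of 10 (median -0.77), among them Ly6c2, Ccr2 and Plac8. Of neutrophil genes 2 of 8 tested were called lower, S100a8 and S100a9 (median -0.28), where 29.6% of all genes were. Retnlg of the same list went the other way without passing (1.41, SE 0.682, edgeR adjusted p = 0.0982). The neutrophil genes summed to 33.8 to 51.2 CPM in the miR-206 libraries and 19.6 to 31 CPM in the control libraries. Of dendritic cell genes 2 of 9 tested, Bst2 and Irf8, were lower and Zbtb46 was higher (median -0.30). Of T, NK and B cell genes 6 of 13 tested were lower, led by the cytotoxic granule gene Nkg7, the antibody chain Ighm and Jchain, and 3 were higher (median -0.74). The medians of these last lists turned positive when libraries were scaled on hepatocyte genes. The median of all genes was then 2.30, with 54.6% of all genes tested called higher and 3.22% lower. On that scale none was called lower and 3 were called higher among the monocyte genes (median 1.11), the neutrophil genes (1.63) and the dendritic cell genes (1.75) alike. The T, NK and B cell genes then had 3 lower and 6 higher (median 1.73). In miR-206 libraries the monocyte list summed to 1.4 to 1.73 times the receptor background and the neutrophil list to 2.24 to 2.86. The dendritic list summed to 2.97 to 3.65 times and the T, NK and B cell list to 2.57 to 2.78 times. With that background also subtracted, monocyte genes had 2 lower and 1 higher, and dendritic cell genes 1 lower and 2 higher. Neutrophil genes had none lower and 1 higher, and T, NK and B cell genes 3 lower and 3 higher (median 0.04). Of all genes 11.7% were then lower and 33% higher. None of the listed genes was at 0 in every library of a group.

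In the control group the order of the libraries differed between lists of non-parenchymal genes. Genes of sinusoidal endothelial cells, which line the liver sinusoids, summed to 333, 164 and 213 CPM in the miR-206 libraries and 749, 565 and 563 CPM in the control libraries. Control replicate 1 was the lowest control for the Kupffer genes and the highest for the endothelial genes. The Kupffer sum was 0.249, 0.379 and 0.297 times the endothelial sum in the miR-206 libraries and 0.389, 1.74 and 1.65 times in the control libraries, so that control replicate 1 lay next to the miR-206 range. Cholangiocyte genes, of the bile duct lining, summed to 213, 52.0 and 110 CPM in the miR-206 libraries and 2630, 555 and 677 CPM in the control libraries, again with control replicate 1 highest. Stellate cell genes had the order of the Kupffer genes instead, with 260, 170 and 209 CPM in the miR-206 libraries and 266, 601 and 535 CPM in the control libraries, and control replicate 1 was also the lowest control for the general myeloid genes (622 CPM, against 815 and 781). The part of these cells in the Kupffer gene results was not tested. All 15 endothelial genes were called lower in miR-206 cells (median -2.80), with Clec4g, Gpr182 and Aqp1 leading at -4.91, -4.52 and -5.19 (edgeR adjusted p = 0.000271 to 0.000281). Cholangiocyte genes were lower in 6 of 8 (median -2.73), led by Krt19, Spp1 and Cldn7, and stellate cell genes in 7 of 12 (median -1.29), led by Dcn, Colec11 and Ecm1. Hepatocyte genes were lower in 18 of 25 (median -2.11), among them Hnf4a (-4.30), Cps1 (-5.29) and Tat (-4.53), and 9 of 25 were lower with library size alone. With libraries scaled on hepatocyte genes 4 endothelial genes were lower and none higher (median -0.84), and 3 cholangiocyte genes were lower and 1 higher (-1.25). The median of the stellate genes turned to 0.97 on that scale, with 2 lower and 2 higher, where the median of all genes was 2.30. With TMM scaling the median of the Kupffer genes was the lowest of these lists, as a description without a test of the difference. With the background subtracted and libraries scaled on hepatocyte genes it was -2.95, above the -3.16 of the cholangiocyte genes.

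**Figure D5:**
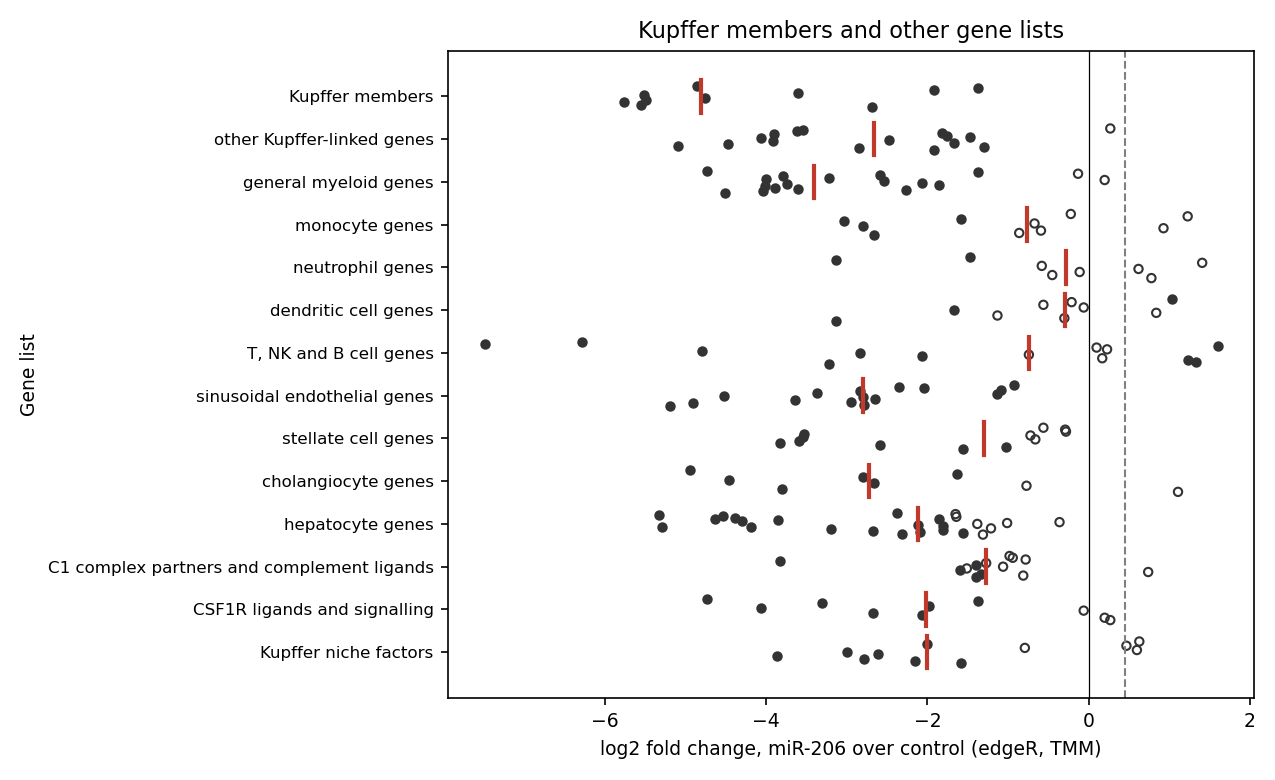
Log2 fold change of each tested gene, miR-206 over control, by gene list, filled where the adjusted p was under 0.05; red bars are list medians and the dashed line is the median of all genes (0.45). The Kupffer genes have a median of -4.81 and 10 of 10 filled points, followed by the general myeloid genes at -3.41.

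Genes for partners of the Kupffer gene products are given beside the shares over all genes. C1q acts with the proteases C1r and C1s, made largely by hepatocytes, and is held in check by the inhibitor Serping1. Among 13 genes of these partners and of the complement ligands, 5 were called lower and none higher with TMM scaling (median -1.27). Of all genes tested 29.6% were called lower on that scale, around a median of 0.45. With libraries scaled on hepatocyte genes 1 was lower and 3 higher (median 0.66). On that scale 3.22% of all genes were lower and 54.6% higher (median 2.30). C1ra was counted 1772, 510 and 1157 times in the miR-206 libraries and 2328, 4515 and 3973 times in the control libraries, a fold change of -1.39 (SE 0.494, edgeR adjusted p = 0.0352). C2, a protease of the C3 convertase, had -1.60 (SE 0.42, edgeR adjusted p = 0.00975), and Serping1 -0.98 (SE 0.536, edgeR adjusted p = 0.136). C3, the source of the fragments that Vsig4 binds, did not pass at -1.51 (SE 0.643, edgeR adjusted p = 0.066). With the receptor background subtracted only Colec11, a collectin gene that is also on the stellate list, was called lower among the 13. Of all genes tested that way 29.2% were lower.

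Of 10 genes of CSF1R ligands and signalling, 7 were lower and none higher with TMM scaling (median -2.02), where 29.6% of all genes were lower. The list had 1 lower and 3 higher with libraries scaled on hepatocyte genes (median 0.06). On that scale 3.22% of all genes were lower and 54.6% higher (median 2.30). With the background subtracted 5 were lower, where 29.2% of all genes were. The ligand gene Il34 was counted 4, 9 and 7 times in the miR-206 libraries and 30, 81 and 61 times in the control libraries (-2.68, SE 0.565, edgeR adjusted p = 0.00326), where the miR-206 counts lay at 0.695 times the receptor background. The other ligand gene, Csf1, gave 84, 45 and 74 counts in miR-206 libraries and 22, 86 and 114 in control libraries (0.20, SE 0.474, edgeR adjusted p = 0.72). Spi1, which encodes PU.1, passed at -1.37 (SE 0.504, edgeR adjusted p = 0.0398), with 5.64 ± 1.8 CPM in miR-206 cells and 6.61 ± 3.63 CPM in control cells. Its miR-206 counts lay at 2.05 times the receptor background, and it did not pass with that background subtracted (-1.17, edgeR adjusted p = 0.16). The phosphatase gene Ptpn6 and the kinase gene Pik3cd passed at -3.31 and -1.98 (edgeR adjusted p = 0.000274 and 0.00117). Their miR-206 counts lay at 2.41 and 0.969 times the background, and both passed again with it subtracted. A list of 12 genes of the Kupffer niche, meaning signals from neighbouring endothelial and stellate cells, stands against the same shares of all genes. Of 11 tested, 7 were lower and none higher with TMM scaling (median -2). With libraries scaled on hepatocyte genes 1 was lower and 3 higher (median 0.42). Those lower with TMM scaling include Gdf2 (-3) and Bmp2 (-2.78), which lay at 0.980 and 0.862 times the receptor background in the miR-206 libraries.

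The pattern of the Kupffer genes over the 6 libraries was shared with many other genes. Pairs of the 10 genes correlated at 0.824 to 0.999 (median 0.954) on a log2 CPM scale with TMM factors, unlike the plain CPM above. Of 13097 other genes with at least 5 CPM, 5214 correlated with the genes' mean at over 0.9. The 5 closest, at 0.9997 to 0.9999, were Hibadh, an enzyme of valine breakdown, Npm1, a nucleolar protein, Higd1a, a mitochondrial protein, Qdpr, a pteridine reductase, and Mrpl9, a mitochondrial ribosomal protein. Their fold changes were -2.45 to -3.73, smaller than those of the C1q chains. These coefficients hold for TMM scaling, rest on 6 libraries in 2 groups that differ in depth and background, and are a description.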

How the data were processed

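RNA of 6 libraries of sorted mouse hepatocytes was analysed from the raw counts per Ensembl gene that the authors deposited, 1 column per library, with no normalisation applied. Libraries were made from total RNA with a SMARTER mRNA kit, per the labels' protocols. The builds GRCm38 and mm10 are named in the submitters' processing notes, and which aligner, counter, annotation or strand option was used is not given in the sources used here. Of 49315 genes, 49056 matched GENCODE M21 by identifier, which gave exonic lengths and coordinates.

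Genes passing filterByExpr (minimum count 10) were scaled by TMM and tested over all genes in edgeR 4.0.16 by its quasi-likelihood test (robust, group as the single term), miR-206 over control, with Benjamini-Hochberg adjustment at 0.05 in R 4.3.3. Log2 CPM used a prior count of 2, with TMM factors in the correlations between genes. The receptor background is the count of 1915 Olfr and Vmn genes per exonic kb (5760 kb) times a gene's exonic length. The script was tested on simulated data. DESeq2 1.42.0, other scalings, filters, a replicate block and fits without each library were alternatives.

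The members and lists were chosen with earlier results of these data known. Besides the 10 members, the text names up to 3 genes per list with the smallest p, and the 5 genes most like the members. 1 gene that this rule picks is not reported here. Spic, Ptprc, Itgam, Serping1, C3, Il34, Csf1, Spi1, Hmgxb3 and Alb were chosen after their values were seen. For the shallowest library 3 counts, the limit for a gene at 0, are 0.722 CPM.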

Additional observations from a re-analysis of the deposited data

How the results depend on the processing

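The number of Kupffer genes called lower was 10 with RLE factors, without the count filter, with DESeq2, without mitochondrial genes and with the replicate block, 8 with upper-quartile factors, library size alone or background subtraction, 7 with subtraction and hepatocyte scaling together, and 6 with libraries scaled on hepatocyte genes. It was 9 to 10 with 1 library left out. None was called higher under any of these. Over the 10 genes and 17 alternatives, 153 of 170 fold changes kept their direction and side of the threshold, 13 missed the threshold and 4 turned: Marco gave 0.50 with hepatocyte scaling and 0.13 with subtraction added, and Timd4 1.04 and 0.77. All 10 lay below the median of all genes under each of the 17. The 2 settings that combine subtraction with another choice were added after seeing the data.

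Other Kupffer-linked genes called lower numbered 8 with library size alone, 2 with hepatocyte scaling and 5 with subtraction added, against 15. General myeloid genes numbered 8 and 9 on those last scales, and endothelial genes 4 and 8. Hepatocyte genes numbered 9 with upper-quartile factors, library size alone, hepatocyte scaling, subtraction or the replicate block, 8 with subtraction and hepatocyte scaling, and 9 to 24 with 1 library left out. All genes called numbered 8472 to 19532 with 1 library left out (8796 without miR-206 replicate 1, 8472 without miR-206 replicate 3) and 8283 with subtraction and hepatocyte scaling. The causes were not tested.

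Same-numbered libraries deviated from their group means with correlations of 0.00818, 0.0230 and -0.00644, and not every library correlated best with its own. The libraries differ in depth and background, so these values cannot decide whether same-numbered libraries share a mouse. The replicate block gave 12059 calls over all genes, against 13502, and all 10 Kupffer genes. Counts of 9 to 76 per gene in the miR-206 libraries limit how precisely the low level there is known.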
